A study of Mus musculus with 8 samples.

Results

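Endothelial cells of the mesentery were compared with endothelial cells of epididymal adipose tissue in mice kept on normal chow. The cells came from 4 droplet libraries, a mesentery and an adipose library in each of runs A and B, and each tissue was set against the other within its run. A barcode counted as a member when it held at least 500 UMIs (unique molecular identifiers, each a counted transcript molecule) and at least 300 genes, with at most 10% of its UMIs from mitochondrial genes. It also had to hold at least 2 of the endothelial markers Pecam1, Cdh5, Cldn5 and Egfl7, and no UMI of the leukocyte gene Ptprc or the adipocyte gene Adipoq. Members were thus chosen by measured values, and they were 8234 of the 16638 barcodes of the chow libraries, out of 27944 barcodes in the whole series. Mesentery A gave 1223 members, mesentery B 3055, adipose A 1203 and adipose B 2753.

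All mice were male ROSA26-eYFP+/+ Cdh5-CreERT2+ animals, in which the promoter of the endothelial cadherin gene Cdh5 drives a tamoxifen-dependent Cre that switches on YFP. They ate tamoxifen diet for 2 weeks from 6 weeks of age, so that endothelial cells and their descendants were marked, and from 8 weeks of age they received either normal chow with 5.8% fat or a high fat diet with 60% fat for 12 to 13 weeks. The 4 groups were mesentery and adipose tissue on either diet, with 2 libraries each, and each library pooled the sorted YFP+ cells of 6 mice. The experiment was repeated to give the independent runs A and B. A library is therefore a pool, each group has 2 of them, and the error of the tests is pooled over the 4 groups, the high fat ones included. The label gives all cells as endothelial, and the threshold of the YFP+ sort was not known here. In these sums over a library, fewer cells of a vessel type and less RNA per cell cannot be told apart.

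The mesentery is the fold of tissue that carries arteries, veins, lymphatic vessels and lymph nodes to and from the intestine. Its veins drain absorbed nutrients and its lymphatic vessels carry chylomicrons and immune cells from the gut. Endothelium of epididymal fat is rich in capillaries, which take up fatty acids that lipoprotein lipase frees from triglyceride-rich particles at the vessel wall. Vessels of lymph nodes have endothelium of their own: high endothelial venules display sulphated and fucosylated sugars on carriers such as Glycam1, to which L-selectin on lymphocytes binds, and the lymphatic endothelium of the node's sinuses makes scavenger receptors such as Marco.

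The 4 chow libraries held between 4039642 and 36779289 UMIs, and run A was shallower than run B. The members held 5003260 UMIs in mesentery A, 14266974 in mesentery B, 1981403 in adipose A and 13724624 in adipose B. Their median depth was 3866, 3605, 1482 and 4127 UMIs per cell in that order, so adipose A was the shallowest. The limit on mitochondrial UMIs removed 22.1% and 22.5% of the barcodes of mesentery A and adipose A, and 7.9% and 8.2% in run B. Among members, Pecam1 was seen in 70.2% to 92.6% of cells, Cdh5 in 59.7% to 94.4%, Cldn5 in 72.9% to 83.8% and Egfl7 in 83.6% to 93.2%, with adipose A lowest for Pecam1, Cdh5 and Egfl7 and mesentery B lowest for Cldn5. Pairs of libraries shared 0 to 3 member barcodes.

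At the edge of the marker rule, barcodes with exactly 2 of the 4 markers were kept and those with exactly 1 were not. The former numbered 133 in mesentery A, 297 in mesentery B, 426 in adipose A and 274 in adipose B. The latter numbered 88, 269, 267 and 181. The requirement of no Adipoq UMI removed 1 barcode in mesentery A and 6 in adipose A, but 969 in mesentery B and 2265 in adipose B. Barcodes with Adipoq were thus far more numerous in run B.

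Levels below are CPM, the UMIs of a gene over the summed UMIs of all members of a library. They are scaled to the usual common size and by the trimmed mean of M-values. Differences are mesentery minus adipose on the log2 scale, with an approximate standard error (SE). The SE is the size of the difference over the square root of the F statistic of the test given next. A gene was called when the adjusted p (edgeR quasi-likelihood test with the run as a block, Benjamini-Hochberg over 13362 tested genes) was under 0.05. Mesenteric and adipose endothelium differed in 67 genes, which is 0.501% of those tested. Of these, 45 were higher in the mesentery (0.337%) and 22 were lower (0.165%). The count rests on the pairing by run and on few libraries. Without the block no gene was called, with 504 genes at an unadjusted p under 0.05. Without adipose A or without adipose B no gene was called either, with 1089 and 972 genes at an unadjusted p under 0.05, while leaving out mesentery A gave 706 calls and leaving out mesentery B gave 420. DESeq2 called 431 genes and limma-voom 46. At an unadjusted p under 0.05 the same fit, over all 8 libraries, gave 1591 genes (11.9%), 935 of them higher (7.00%) and 656 lower (4.91%) in the mesentery.

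The gene with the smallest p was Nkx2-3 (chr19:43612325-43615892, GRCm38.p6), a homeobox transcription factor needed for vessels of the spleen and gut. It measured 214 CPM in mesentery A and 120 CPM in mesentery B, and no UMI was found in adipose A or adipose B. The mesenteric mean was at least 924-fold higher than the adipose level, taking 3 UMIs over both adipose libraries as the floor (edgeR adjusted p = 0.0109). Later bounds of this kind also set the mean of both mesenteric libraries against a floor pooled over both adipose libraries. They are not bounds within a run. Plac8, a small cysteine-rich protein (chr5:100551589-100572253), measured 214 and 43.1 CPM in the mesentery against 5.74 and 0.884 CPM in adipose A and B. Both mesenteric libraries of Plac8 were above both adipose libraries, with a difference of 5.47 ± 0.42 (SE, n = 2 pairs of libraries, edgeR adjusted p = 0.0109). Myof, which encodes the membrane repair protein myoferlin, measured 364 and 252 CPM against 59.5 and 56.4 CPM, a difference of 2.38 ± 0.18 (edgeR adjusted p = 0.0109).

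Secreted signals stood among the genes called higher. The alarmin cytokine Il33 (chr19:29925113-29960718) measured 215 and 208 CPM in the mesentery and 20.9 and 14.9 CPM in adipose tissue. Its difference was 3.60 ± 0.51 (edgeR adjusted p = 0.0442). Csf1, the growth factor of macrophages (chr3:107741048-107760469), measured 174 and 203 CPM against 41.2 and 32.4 CPM. The ranges of the tissues did not overlap for either cytokine, and the difference of Csf1 was 2.39 ± 0.21 (edgeR adjusted p = 0.0205). Sfrp5, a secreted inhibitor of Wnt ligands, measured 15.0 and 29.8 CPM against 0 and 2.99 CPM (edgeR adjusted p = 0.0458). Ahsg, a plasma glycoprotein made chiefly by liver, was low everywhere, at 7.28 and 10.6 CPM against 0.522 and 0.340 CPM (edgeR adjusted p = 0.0421). Scgb3a1, a secretoglobin, measured 6.43 and 21.9 CPM against 0 and 1.22 CPM (edgeR adjusted p = 0.0360).

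Receptors, enzymes and other genes made up the rest of the largest positive differences. Itga2b, an integrin chain known from platelets, measured 46.9 and 72.7 CPM against 3.65 and 5.51 CPM, a difference of 3.59 ± 0.54 (edgeR adjusted p = 0.0483). Itga2, a chain of a collagen-binding integrin, measured 15.2 and 21.8 CPM against 2.61 and 2.45 CPM. The sphingolipid enzymes Cers6, a ceramide synthase, and B4galt6, which adds galactose to glucosylceramide, differed by 3.38 ± 0.33 and 2.60 ± 0.37. Cers6 stood at 39.4 and 15.1 CPM against 3.65 and 1.56 CPM. Ifi27l2b, of an interferon-inducible family, measured 16.1 and 8.75 CPM against 0.522 and 1.09 CPM. Xlr5c measured 15.9 and 30.9 CPM against 0 and 0.0680 CPM, the latter a lone UMI (edgeR adjusted p = 0.0427); it has near-identical copies on the X chromosome, so its count is uncertain. Gucy1a1, the alpha chain of the nitric oxide receptor guanylate cyclase, measured 272 and 189 CPM against 51.7 and 57.0 CPM and differed by 2.05 ± 0.20 (edgeR adjusted p = 0.0211). In each of these genes both mesenteric libraries lay above both adipose libraries.

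**Figure D1:**
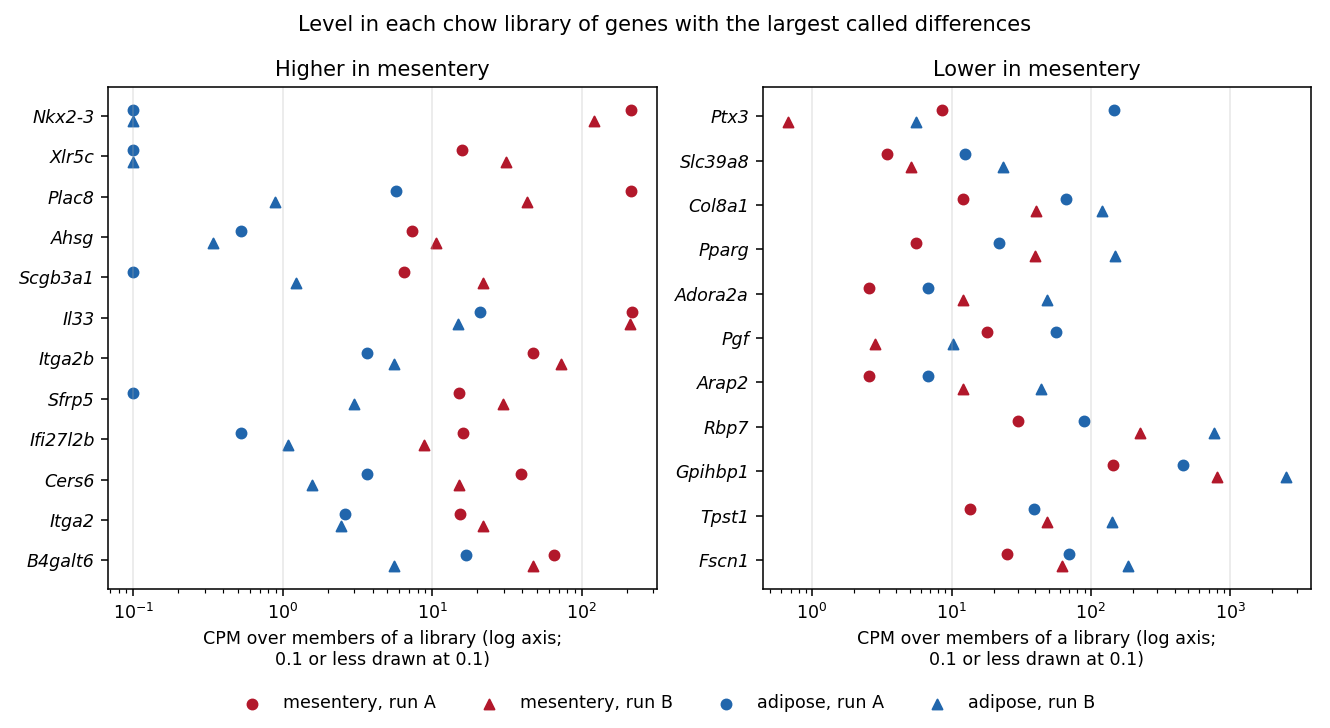
CPM on log axes in the 4 chow libraries for genes with the largest positive (left) and largest negative (right) called differences, mesentery in red, adipose tissue in blue, run A as circles and run B as triangles, with values of 0.1 or less drawn at 0.1. On the left all red points lie right of the blue ones, with Nkx2-3 at 214 and 120 CPM in the mesentery, while on the right the colours separate within a run but often overlap between runs, as for Gpihbp1 at 145 and 798 CPM against 455 and 2515 CPM.

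Genes of capillary lipid handling were among those called lower in the mesentery. Gpihbp1 (chr15:75596630-75598213), which holds lipoprotein lipase on the capillary surface, measured 145 and 798 CPM in mesentery A and B against 455 and 2515 CPM in adipose A and B. Within each run the mesentery was lower, while the runs themselves differed more than the tissues, so mesentery B lay above adipose A. The difference was -1.65 ± 0.21 (edgeR adjusted p = 0.0389). The nuclear receptor Pparg (chr6:115360879-115490404), a regulator of fatty acid uptake in adipose endothelium and of adipocytes, measured 5.57 and 39.9 CPM against 21.9 and 149 CPM, a difference of -1.92 ± 0.18 (edgeR adjusted p = 0.0211). The retinol-binding protein gene Rbp7 measured 30.0 and 225 CPM against 89.2 and 762 CPM, a difference of -1.67 ± 0.20. As for Gpihbp1, the Pparg and Rbp7 levels of mesentery B were above those of adipose A, so these 3 calls exist only as differences within runs. Pparg is also an adipocyte gene: the summed level of the adipocyte list was 43.3 and 711 CPM in mesentery A and B against 39.1 and 1842 CPM in adipose A and B, and its part in the Pparg result was not tested. With cells of at least 3 UMIs from other cells left out, a fit that called 20 genes in all, Pparg differed by -1.76 and was not called. With cells that held Adipoq UMIs kept, 42 genes were called, 40 higher and 2 lower; Rbp7 was still called at -1.52, while Gpihbp1 at -1.42 and Pparg at -1.64 were not. Within the capillary gate defined below, Pparg differed by -0.85 ± 0.36 and Rbp7 by -0.64 ± 0.30, and neither was called (edgeR adjusted p = 0.789 and 0.99).

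Other genes called lower encode secreted and matrix proteins, receptors and regulators. Ptx3, a secreted pattern recognition protein (chr3:66219887-66225806), had the largest negative difference, -3.67 ± 0.49 (edgeR adjusted p = 0.0389). It measured 8.57 and 0.668 CPM against 146 and 5.58 CPM, and was thus high mainly in adipose A. Col8a1, a short-chain collagen of the subendothelium, measured 12.0 and 40.4 CPM against 66.3 and 120 CPM, and both adipose libraries lay above both mesenteric ones. So did those of Slc39a8, a zinc and manganese importer, at 3.43 and 5.08 CPM against 12.5 and 23.3 CPM. Pgf, a ligand of the VEGF receptor Flt1, measured 18.0 and 2.81 CPM against 56.4 and 10.3 CPM. The adenosine receptor gene Adora2a differed by -1.83 ± 0.23, Arap2, which acts on Arf GTPases, by -1.74 ± 0.25, Tpst1, which sulphates tyrosines, by -1.54 ± 0.20 and the actin-bundling Fscn1 by -1.54 ± 0.20. For Pgf, Adora2a, Arap2 and Tpst1, as for Ptx3, the tissues differed within each run but overlapped between runs, while those of Fscn1 did not overlap.

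**Figure D2:**
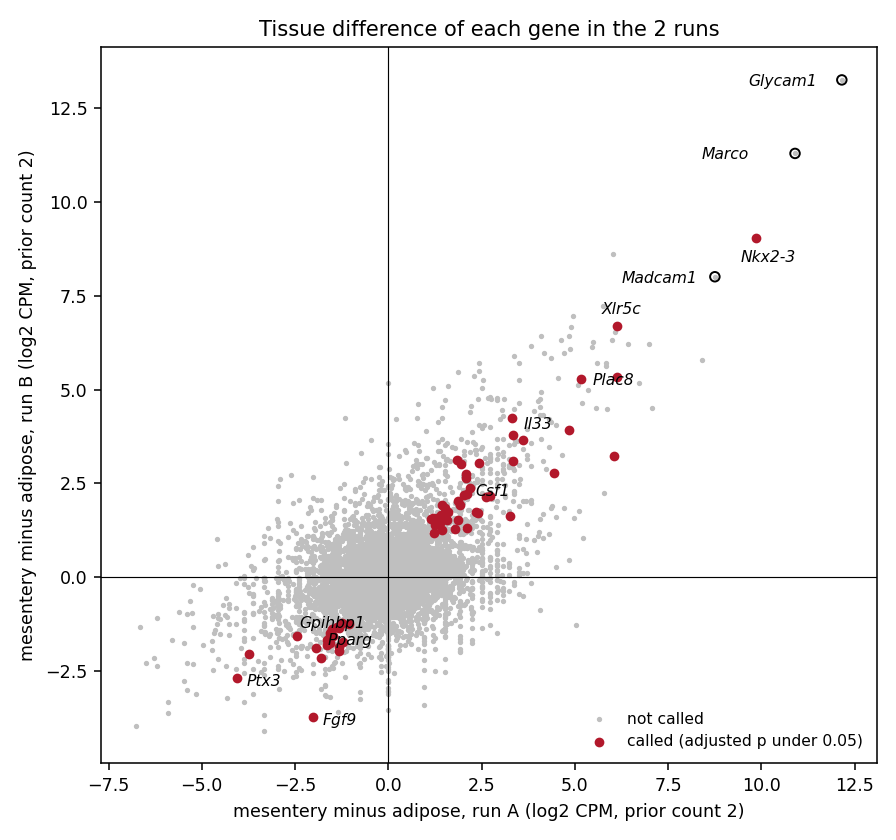
Log2 difference between mesentery and adipose tissue in run A (horizontal) and run B (vertical), on log2 CPM with a prior count of 2, a point for each of the 13362 tested genes, called genes in red. Called genes have the same sign in both runs, and Glycam1, Marco and Madcam1, ringed, lie far to the upper right beside Nkx2-3 without a call; over all genes 57.4% had the same sign, with a Pearson's r of 0.484 that describes these 4 libraries.

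Further genes called higher are given here by choice after their values were seen, and as single genes. Tnfaip3, a brake on NF-kappaB signalling, measured 162 and 20.4 CPM against 35.5 and 3.74 CPM, a difference of 2.31 ± 0.26 (edgeR adjusted p = 0.0377). Nfkb2, a subunit of NF-kappaB, measured 56.6 and 47.2 CPM against 21.4 and 15.6 CPM and differed by 1.5 ± 0.22 (edgeR adjusted p = 0.0458). The adaptors Traf1 and Tifa and the ubiquitin ligase Birc2 differed by 1.47 ± 0.21, 1.68 ± 0.18 and 1.71 ± 0.23. Tnfaip3 was higher in run A than in run B in either tissue, so adipose A lay above mesentery B, whereas Nfkb2 and Birc2 had mesenteric levels above adipose levels across both runs. The stress genes Hspa1a and Hspa1b, near-identical copies that the counting may split, and Ier3 were also called higher. These are 3 of 20 tested genes of the list of immediate early and dissociation genes, with Ier3 at 1937 and 59.5 CPM against 789 and 20.9 CPM, so the level of Ier3 differed more between runs than between tissues.

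A common form of the NF-kappaB site, GGGAA followed by any 3 bases and CC, was searched on both strands in the 250 bases before each RefSeq gene start (GRCm38.p6). It occurred in 740 of the 10316 tested genes with a promoter in the table (7.2%). Among genes called higher with a promoter there, 6 of 38 held it (15.8%: Casp4, Csf1, Hspa1a, Hspa1b, Nfkb2 and Tnfaip3), where Hspa1a and Hspa1b are near-identical copies, and among genes called lower 1 of 16 (6.2%: Mtss2). The letters TNAAGTG, a core that NKX2 factors bind, occurred in 9.1% of tested genes, in 7 of 38 genes called higher (18.4%) and in 3 of 16 called lower (18.8%). A match describes the sequence and does not show binding. The promoters of 3 genes with higher levels in mesenteric endothelium are shown, with matches in capitals. They run 5′ to 3′ on the strand of the gene and end just before the start. All 3 hold the NF-kappaB site, unlike most of the genes called higher. Madcam1, the gut addressin that binds lymphocyte integrins, was not called over all members and is shown because it holds adjacent matches. The positions are chr10:79664309-79664558 for Madcam1 (plus strand), chr19:46304487-46304736 for Nfkb2 (plus strand, the first of its starts in the table; the others hold no match) and chr3:107760470-107760719 for Csf1 (minus strand).
Madcam1: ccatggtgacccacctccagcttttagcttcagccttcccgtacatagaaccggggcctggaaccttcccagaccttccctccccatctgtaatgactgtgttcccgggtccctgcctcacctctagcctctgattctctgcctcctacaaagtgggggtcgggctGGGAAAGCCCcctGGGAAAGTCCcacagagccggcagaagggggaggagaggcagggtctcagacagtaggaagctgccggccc
Nfkb2: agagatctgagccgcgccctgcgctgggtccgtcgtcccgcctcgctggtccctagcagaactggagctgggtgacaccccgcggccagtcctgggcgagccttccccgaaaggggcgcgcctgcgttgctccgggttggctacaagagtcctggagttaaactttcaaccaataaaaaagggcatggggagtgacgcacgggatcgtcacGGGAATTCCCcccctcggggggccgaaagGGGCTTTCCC
Csf1: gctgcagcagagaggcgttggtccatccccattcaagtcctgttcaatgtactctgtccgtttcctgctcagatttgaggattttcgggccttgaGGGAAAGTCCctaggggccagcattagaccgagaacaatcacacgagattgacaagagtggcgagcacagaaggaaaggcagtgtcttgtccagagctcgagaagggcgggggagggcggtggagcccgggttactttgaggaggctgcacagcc

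Genes of leukocyte adhesion differed more often upward than downward in the mesentery, without a call. Of 13 tested, 0 were called, and 7 were higher and 0 lower at an unadjusted p under 0.05, where 7.00% of all genes were higher and 4.91% lower. The median difference was 1.26, against 0.02 over all genes. In the gates defined below, it was 1.74 in the lymphatic, 0.11 in the venous, 0.58 in the capillary and 0.31 in the arterial gate. Outside the lymphatic gate it was 0.29. Glycam1 (chr15:103562759-103565081) measured 1050 and 2899 CPM in the mesentery against 0 and 0.0680 CPM in adipose tissue, the latter a lone UMI (edgeR adjusted p = 0.0602). Madcam1 (chr10:79664559-79668542) measured 99.0 and 164 CPM against 0 and 0.408 CPM (edgeR adjusted p = 0.0911). Chst4, the sulphotransferase that completes the L-selectin ligand, was at 7.50 and 7.82 CPM against 0 in both adipose libraries, at least 42.4-fold higher. The adipose libraries thus held next to none of these 3 transcripts. Vcam1, the integrin ligand of activated endothelium, measured 1590 and 248 CPM against 301 and 80.3 CPM, a difference of 2.08 ± 0.34 (edgeR adjusted p = 0.0614). Vcam1 in mesentery B lay below adipose A, and Icam1 overlapped in the same way.

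Chemokines, cytokines and the decoy receptors that remove them showed a like pattern. Of 20 tested genes 2 were called higher, Csf1 and Il33, and 9 were higher against 2 lower at an unadjusted p under 0.05, with a median of 0.80. Of all tested genes 0.337% were called higher, and 7.00% were higher and 4.91% lower at that threshold. Ackr4, a scavenger of CCL19 and CCL21 on lymphatic endothelium, measured 12.2 and 79.6 CPM against 2.09 and 1.29 CPM (edgeR adjusted p = 0.0834). Cxcl12, the ligand of Cxcr4, went the other way within runs, at 71.8 and 635 CPM against 264 and 895 CPM, a difference of -1.24 ± 0.36 (edgeR adjusted p = 0.213).

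Antigen presentation genes were higher in the mesentery in both runs for 17 of 18 tested, where 4044 of all genes (30.3%) were higher in both runs and 3630 (27.2%) lower in both. None was called, 13 were higher at an unadjusted p under 0.05, as were 7.00% of all genes, and the median was 1.02. Within gates the median was 1.79 in the lymphatic, 0.57 in the venous, 0.70 in the capillary and -0.12 in the arterial gate. Outside the lymphatic gate it was 0.63. Cd74, the invariant chain of class II molecules, measured 773 and 206 CPM against 67.3 and 33.2 CPM and differed by 3.22 ± 0.66 (edgeR adjusted p = 0.1). B2m, the light chain of class I molecules, measured 2143 and 2576 CPM against 904 and 1510 CPM, a difference of 1.04 ± 0.27 (edgeR adjusted p = 0.161). Neither gene overlapped between tissues. Genes of the H2 family resemble each other and their counts may be split between them. Among 25 interferon response genes 18 were higher in both runs and 1 lower, with a median of 0.53 and no call.

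Lists of vessel type moved in opposite directions. Over all tested genes 0.501% were called, and 7.00% were higher and 4.91% lower at an unadjusted p under 0.05. Of 14 tested capillary genes 2 were called lower (Gpihbp1 and Rbp7), 7 were lower and 0 higher at an unadjusted p under 0.05, and the median was -0.80. Of 13 venous genes 7 were higher and 0 lower at that threshold with a median of 0.63, none called. Adgrg6, an adhesion receptor of the list, measured 228 and 92.7 CPM against 44.4 and 29.5 CPM (edgeR adjusted p = 0.0698). The lymphatic list had a median of 0.49 over 14 genes with 3 higher, and the arterial list one of -0.21 over 18 with 2 higher and 4 lower at an unadjusted p under 0.05.

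**Figure D3:**
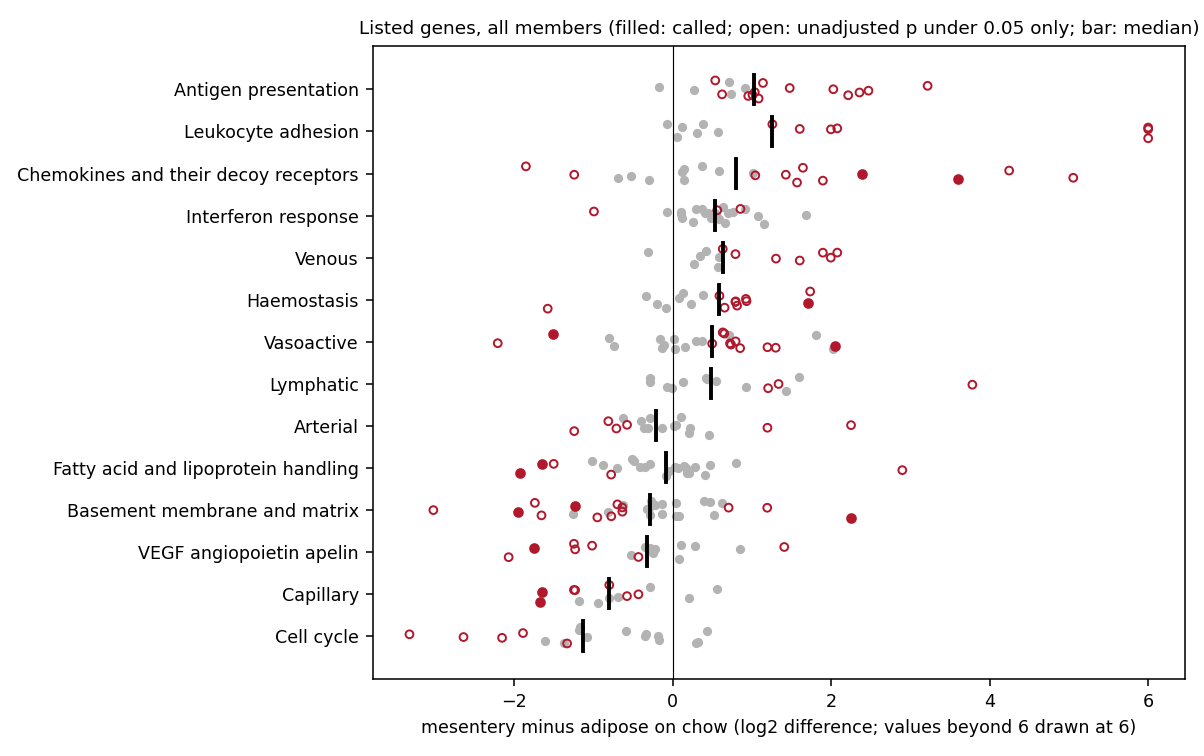
Log2 difference between mesentery and adipose tissue for each tested gene of the lists, a point for each gene (filled red for called, open red for an unadjusted p under 0.05 only, grey for the rest), with a bar at the median of the list and values beyond 6 drawn at 6. Leukocyte adhesion and antigen presentation have medians of 1.26 and 1.02, and the capillary list has one of -0.80, against 0.02 over all genes.

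Vasoactive genes and genes of haemostasis were more often higher. Over all tested genes, 7.00% were higher and 4.91% lower at an unadjusted p under 0.05. Among 25 vasoactive genes Gucy1a1 was called higher and Ednrb, the endothelin receptor of endothelium, lower, with 10 higher and 2 lower at an unadjusted p under 0.05 and a median of 0.50. Ednrb measured 49.5 and 80.2 CPM against 115 and 265 CPM, and both adipose libraries were above both mesenteric ones (-1.51 ± 0.22, edgeR adjusted p = 0.0482). Edn1, which encodes the ligand endothelin-1, was at 399 and 423 CPM against 153 and 205 CPM (1.20 ± 0.25, edgeR adjusted p = 0.102). Among 17 haemostasis genes Thbs1, which encodes thrombospondin-1, was called higher at 491 and 122 CPM against 136 and 42.0 CPM (1.71 ± 0.22, edgeR adjusted p = 0.0389), and 9 were higher and 1 lower at an unadjusted p under 0.05.

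Matrix and growth factor genes were more often lower, where 4.91% of all tested genes were lower and 7.00% higher at an unadjusted p under 0.05. Of 30 genes of basement membrane and matrix, Col8a1 and Col4a2 were called lower and Pcolce2, an enhancer of procollagen processing, higher. At an unadjusted p under 0.05 the list had 10 lower and 3 higher, with a median of -0.29. Col4a2, a chain of type IV collagen, measured 86.6 and 251 CPM against 205 and 587 CPM. Of 16 genes of VEGF, angiopoietin and apelin signalling, Pgf was called lower and 6 were lower against 1 higher at that threshold; Apln, Aplnr, Kdr, Nrp1 and Angpt2 were lower beside Pgf, and Vegfa was higher. Among 25 genes of fatty acid and lipoprotein handling the calls were Gpihbp1 and Pparg, and the median was -0.09. Of 18 cell cycle genes none was called, 5 were lower and 0 higher at an unadjusted p under 0.05, with a median of -1.13; Mki67, made in dividing cells, was at 2.79 and 5.28 CPM against 8.35 and 28.3 CPM.

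Positional and retinoid genes held a few marked differences. Of all tested genes 0.501% were called, and 7.00% were higher and 4.91% lower at an unadjusted p under 0.05. Of 32 tested homeobox genes, Nkx2-3 was the one called, and the median of 0.09 was near that of all genes. Meis2, a partner of Hox proteins, measured 195 and 263 CPM against 95.5 and 38.8 CPM (2.10 ± 0.55, edgeR adjusted p = 0.165), and at an unadjusted p under 0.05 the list had 6 higher, Nkx2-3, Meis2 and Hoxa10 among them, and 2 lower (Hoxc5 and Hoxc8). Among endothelial transcription factors Gata6 measured 157 and 87.9 CPM against 48.5 and 37.1 CPM (1.42 ± 0.28, edgeR adjusted p = 0.0899), and Gata4 was at 3.64 and 5.95 CPM against 0 in both adipose libraries, at least 26.6-fold higher. Cyp26b1, which breaks down retinoic acid, was called higher at 135 and 236 CPM against 37.6 and 27.0 CPM (2.58 ± 0.35, edgeR adjusted p = 0.0389). With Rbp7 it made 2 calls in opposite directions among 13 retinoid genes. Bmp2, a bone morphogenetic protein, measured 146 and 157 CPM against 8.35 and 4.90 CPM, a difference of 4.64 ± 0.91 that was not called (edgeR adjusted p = 0.0924).

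Transcripts of other cells were present in the members and differed with run and tissue. Members with at least 3 UMIs over the lists of other cells made up 22.7% of mesentery A, 43.7% of mesentery B, 11% of adipose A and 66.9% of adipose B. The summed mural cell list was 443 and 366 CPM in the mesentery against 627 and 733 CPM in adipose tissue, the erythroid list 0.857 and 267 against 29.2 and 810 CPM, and the fibroblast list 159 and 230 against 399 and 177 CPM. B cell genes summed to 26.1 and 49.2 CPM in the mesentery against 0.522 and 13.7 CPM, and 7 and 4 of the 8 genes of that list were at 0 in adipose A and adipose B. The light chain gene Igkc was at 12.2 and 34.5 CPM in the mesentery and at 0 in both adipose libraries. T cell genes stayed between 0.544 and 1.60 CPM in all 4 libraries and macrophage genes between 40.8 and 117 CPM. With members of at least 3 such UMIs left out, 20 genes were called. The part of these cells in the differences above was otherwise not tested.

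A fraction of mesenteric members expressed genes known from vessels of lymph nodes. A set of 9 genes was chosen after values were seen: Glycam1, Chst4, Fut7, Madcam1, Marco, Clec4g, Ackr4, Itga2b and Ccl20. At least 2 of them were found in 124 of 1223 cells of mesentery A (10.14%) and in 401 of 3055 of mesentery B (13.13%). None was found in 1203 cells of adipose A and none in 2753 of adipose B, which allows shares of up to 0.249% and 0.109% for cells with such UMIs. This is no limit on cells expressing the genes, since adipose A had a median of 1482 UMIs per cell, and the genes were chosen with their low adipose levels in view. Of the Glycam1 UMIs, 4899 in mesentery A and 43391 in mesentery B, these cells held 98.4% in either library. Glycam1 is itself among the 9 genes, so such shares, here and in the gates below, are partly set by the choice of cells. Glycam1 was nevertheless seen in 6.8% and 3.77% of mesenteric cells of the arterial gate defined below, at median depths of 3683 and 3277 UMIs. Over all mesenteric members the shares were 11.45% and 10.93%, at 3866 and 3605 UMIs. The source of the Glycam1 UMIs in arterial cells was not tested.

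Subsets of the 9 genes marked largely separate cells. Cells with at least 2 of Glycam1, Chst4 and Fut7, the last an enzyme that fucosylates L-selectin ligands, numbered 28 and 52 in mesentery A and B. Of these, 89.3% and 82.7% had the chemokine gene Ccl21a, 75.0% and 82.7% Vwf, 92.9% and 88.5% the ubiquitin-like gene Ubd, 21.4% and 38.5% Nkx2-3, and 10.7% and 9.6% the lymphatic regulator gene Prox1. Cells with at least 2 of Marco, Clec4g, Itga2b and Ackr4 numbered 70 and 241. Of these, 80.0% and 82.2% had Prox1, 97.1% and 94.2% Lyve1, 92.9% and 92.1% Il33 and 95.7% and 93.8% Csf1, while none had Nkx2-3 and 4.3% and 2.9% had Ccl21a. Madcam1 was outside both definitions. It was seen in 50.0% and 53.8% of the Glycam1 set and in 24.3% and 30.3% of the Marco set. No cell of mesentery A and 2 of mesentery B met both definitions. Their median depth was 8281 and 10383 UMIs in the Glycam1 set and 4965.5 and 7637 in the Marco set, above the median of all members, and shares were not thinned to a common depth. With all cells holding at least 2 of the 9 genes left out, 38 genes were called (0.292%), 31 of them among the 67. Csf1 then differed by 1.23 and was not called.

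**Figure D4:**
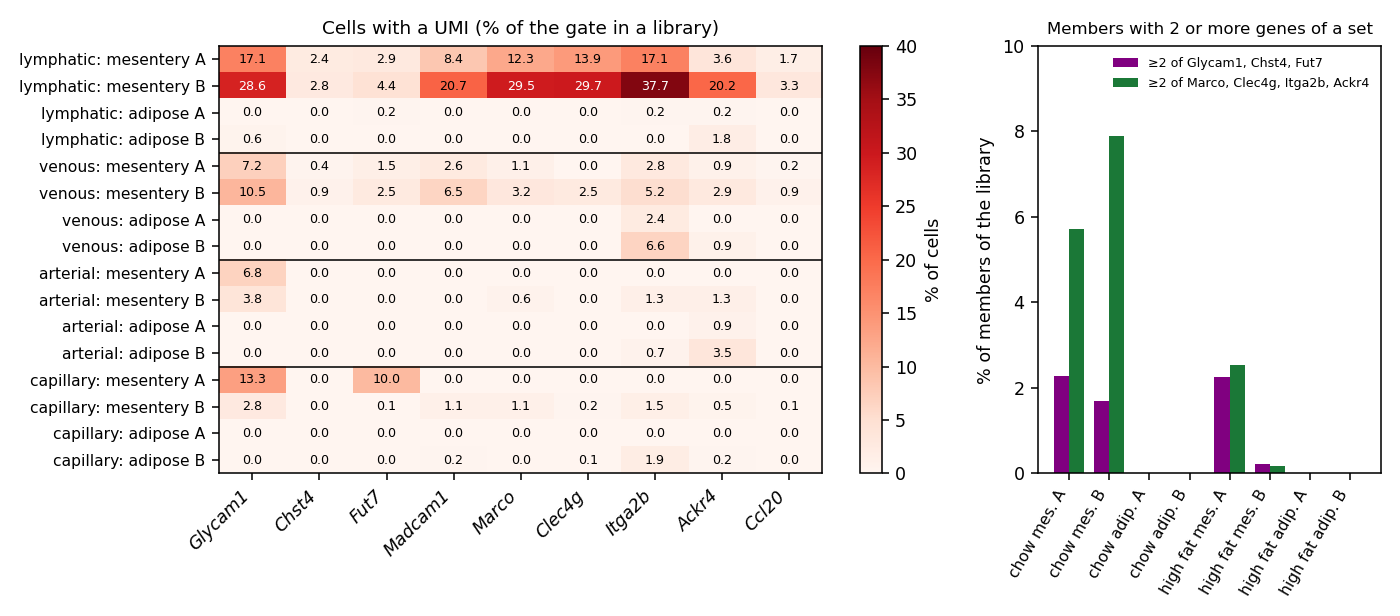
Left, the percentage of cells with a UMI of each of the 9 genes in the 4 gates (rows, defined below) of the 4 chow libraries; right, bars for the percentage of members in each of the 8 libraries that hold at least 2 genes of either set. The Marco set makes up 5.72% and 7.89% of mesentery A and B on chow and the Glycam1 set 2.29% and 1.70%, and both bars are at 0 in the adipose libraries.

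Members were then divided by genes of vessel type. A cell entered the lymphatic gate with at least 2 of Ccl21a, Lyve1, Mmrn1, Pdpn, Prox1 and Reln. Other cells entered a gate when they held at least 2 of its genes and met no other gate: Bmx, Gja4, Gja5, Hey1, Sema3g and Sox17 for the arterial gate, Btnl9, Car4, Cd300lg, Gpihbp1, Rgcc and Timp4 for the capillary gate, and Ackr1, Lrg1, Nr2f2, Sele, Selp and Vwf for the venous gate. After each cell was thinned to 1000 UMIs, the venous gate held 44.75% of mesentery A (95% exact binomial interval 41.89 to 47.64, counting error only) and 16.89% of mesentery B (15.53 to 18.31), against 20.20% of adipose A (17.63 to 22.96) and 9.57% of adipose B (8.46 to 10.77). The mesentery was thus higher in both runs by this rule. Cells that met more than 1 of the arterial, capillary and venous gates entered none of them. They were 0.93% and 3.58% of mesentery A and B and 1.43% and 7.37% of adipose A and B. Without thinning, as in the fits within gates below, they were 8.26% and 19.48% against 3.91% and 31.82%. Their vessel type was not resolved. The capillary gate held 2.28% and 28.46% of mesentery A and B against 2.43% and 60.34% of adipose A and B, and in run A the intervals of the tissues overlapped. The lymphatic gate held 24.45% and 11.40% against 50.11% and 5.32%, with opposite directions in the runs. The arterial gate held 7.45% and 11.12% against 7.40% and 7.33%. Without thinning, the venous share was 43.25% and 18.10% against 17.46% and 7.74%, the capillary share 2.45% and 25.83% against 2.83% and 45.77%, the lymphatic share 34.01% and 20.07% against 53.45% and 6.10%, and the arterial share 8.42% and 10.41% against 9.23% and 5.23%. With 2 libraries a tissue no test of the shares was made.

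Of the 67 called genes, 42 of 57 tested were called in the same direction in the lymphatic gate and 19 of 55 in the venous gate. In the capillary gate 9 of 50 were, and in the arterial gate 9 of 31, and none was called in the other direction. Over all tested genes the shares called were 8.40%, 2.24%, 0.757% and 1.23% in that order. The gates hold part of the cells whose sums chose the 67 genes, so this agreement is no independent support. In each gate the genes that define it are not results.

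In the lymphatic gate 791 of 9415 tested genes were called (8.40%), 527 higher (5.60%) and 264 lower (2.80%) in the mesentery. The gate held 416 and 613 mesenteric cells against 643 and 168 adipose cells, with median depths of 2831, 5613, 1368 and 4182 UMIs. Without the block 117 genes were called, without mesentery B 475 and without adipose B 352. Marco (chr1:120474538-120505024) measured 1304 and 1988 CPM against 0 in both adipose libraries, at least 1010-fold higher. Cyp1b1, a cytochrome P450, was at least 255-fold higher at 272 and 561 CPM, and Ubd at least 228-fold higher at 487 and 257 CPM, with no adipose UMI. Glycam1 was at 2184 and 7166 CPM against 0 and 1.07 CPM. Of the cells with at least 2 of Glycam1, Chst4 and Fut7, 14 of 28 in mesentery A and 24 of 52 in mesentery B entered this gate, although only 10.7% and 9.6% of them had a UMI of Prox1 and 75.0% and 82.7% had one of Vwf, a blood vessel gene. Csf1 measured 285 and 542 CPM against 9.91 and 13.9 CPM and Il33 387 and 579 CPM against 15.4 and 40.7 CPM, differences of 5.09 ± 0.41 and 4.11 ± 0.35. Lower in the mesentery were Neo1, a receptor of netrins and RGM proteins, by -4.18 ± 0.66, Ptx3 by -3.98 ± 0.67, the protease inhibitor gene Cst6 by -3.42 ± 0.55 and the creatine kinase gene Ckb by -3.02 ± 0.34. Ckb was at 20.9 and 6.25 CPM against 184 and 42.9 CPM. By list, 12 of 17 antigen presentation genes, 9 of 25 interferon genes, 7 of 13 adhesion genes and 9 of 16 chemokine genes were called higher, and Cxcl12 alone of these lower.

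Of the lymphatic gate, 94 of 416 cells of mesentery A (22.6%) and 304 of 613 of mesentery B (49.59%) held at least 2 of the 9 lymph node genes, and with them 99.2% and 100.0% of the gate's Glycam1 UMIs. Without them 164 of 9133 genes were called (1.80%), 110 of them higher (1.20%), and 127 were also called with them. The calls then covered 1 of 17 antigen presentation genes (H2-K1), with a median of 0.95, and 1 of 24 interferon genes (Xaf1). They also covered 3 of 10 adhesion genes (Vcam1, Selp and Sele, the last 2 used by the venous gate) and 5 of 15 chemokine genes (Ackr1, Ackr3, Ackr4, Il33 and Csf1). Glycam1, Madcam1 and Chst4 of the adhesion list and Ackr4 of the chemokine list helped choose the cells left out. The counts of these lists and the level of Ackr4 are thus partly set by that choice. Csf1 measured 56.1 and 127 CPM against 9.98 and 14.1 CPM, a difference of 2.89 ± 0.35, and Il33 differed by 2.79 ± 0.27. Cyp1b1 stood at 50.2 and 78.0 CPM against 0 in both adipose libraries, and Nkx2-3 at 63.1 and 21.5 CPM against 0. Edn1 was higher by 3.14 ± 0.41, Igfbp3, which binds insulin-like growth factors, by 3.33 ± 0.29 and the matrix glycoprotein gene Tnc by 3.74 ± 0.46. Ptx3 and Neo1 stayed lower, by -3.03 ± 0.50 and -3.11 ± 0.52. Of 12 venous genes 4 were called higher (Ackr1, Selp, Sele and Vcam1), and of 18 vasoactive genes 4 (Nos3, Edn1, Gucy1a1 and Gucy1b1). Of 15 arterial genes 2 were called higher and 1 lower, and 0 of 13 capillary and 0 of 14 lymphatic genes were called. These 14 include genes that define the gate, which are not results. The part of any blood vessel cells in this gate, including in the Nkx2-3 and Edn1 levels, was not tested.

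In the venous gate 193 of 8633 genes were called (2.24%), 75 higher (0.869%) and 118 lower (1.37%). It held 529 and 553 mesenteric cells against 210 and 213 adipose cells, with median depths of 4528, 3813, 2093 and 4802 UMIs. Without the block 8 genes were called, without adipose A 89, without adipose B 51 and without mesentery B 326. Nkx2-3 measured 306 and 315 CPM against 0 in both adipose libraries, at least 164-fold higher. Glycam1 (91.3 and 1369 CPM), Madcam1 (54.1 and 251 CPM) and Marco (108 and 69.1 CPM) were also at 0 in both adipose libraries, at least 385-, 80.7- and 46.8-fold higher. Few cells held them. Of the gate's cells in mesentery A and B, 7.18% and 10.49% had Glycam1, 2.65% and 6.51% Madcam1, and 1.13% and 3.25% Marco. Gucy1a1 measured 387 and 489 CPM against 20.1 and 16.9 CPM, a difference of 4.60 ± 0.30, and Plac8 407 and 156 CPM against 10.1 and 6.74 CPM. Thbs1 differed by 2.87 ± 0.39 and Cyp26b1 by 3.37 ± 0.63. Both tissues were close between runs for Nkx2-3 and Gucy1a1.

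The genes called lower in mesenteric venous cells were led by Ptn, the heparin-binding growth factor pleiotrophin. It measured 4.88 and 10.1 CPM in the mesentery against 586 and 959 CPM in adipose tissue, a difference of -6.66 ± 0.56 (edgeR adjusted p = 2.19e-05). Slco1a4, an organic anion transporter, was at 0 and 2.16 CPM against 62.8 and 91.9 CPM. Crispld1 and the metalloreductase gene Steap4 differed by -5.01 ± 0.62 and -4.83 ± 0.49. Adipose venous cells thus held high levels of Ptn in both runs. The fibroblast genes Dcn, Col1a2 and Col3a1 were called lower with them, 3 of the 4 tested, and 5 of 24 matrix genes (Col4a1, Sparc, Col4a2, Sparcl1 and Col8a1) were called lower as well; the part of fibroblast RNA was not tested. The 16 and 43 mesenteric cells that held at least 2 lymph node genes had 87.9% and 98.8% of the gate's Glycam1 UMIs, and without them 199 genes were called (2.31%), 171 of them shared. Glycam1 was then at 11.6 and 17.9 CPM and Madcam1 at 2.32 and 9.37 CPM, still 0 in adipose tissue but no longer called (edgeR adjusted p = 0.734 and 0.0794); both are among the genes that chose the cells left out. Nkx2-3 was at 318 and 345 CPM and Ptn at 5.09 and 5.71 CPM against 589 and 960 CPM.

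**Figure D5:**
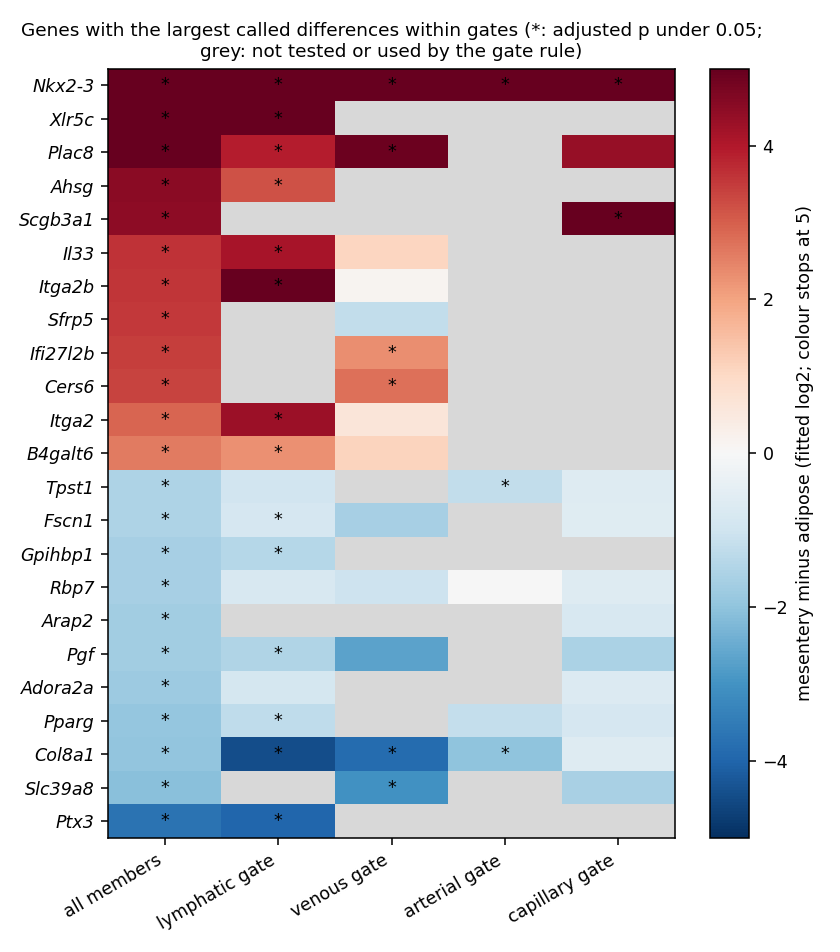
Fitted log2 difference between mesentery and adipose tissue, as colour that stops at 5, for genes with the largest called differences (rows) over all members and within each gate (columns), with a star for an adjusted p under 0.05 and grey for genes not tested or used by the gate. Nkx2-3 is starred in every column, and Il33, at 4.11, is starred over all members and in the lymphatic gate.

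In the arterial gate 72 of 5834 genes were called (1.23%), 37 higher (0.634%) and 35 lower (0.600%), from 103 and 318 mesenteric cells against 111 and 144 adipose cells. Without the block none was called (142 at an unadjusted p under 0.05), without mesentery B 40 and without adipose B 9. Nkx2-3 measured 299 and 202 CPM against 0 in both adipose libraries, at least 65.9-fold higher, and the long noncoding RNA Meg3 189 and 43.4 CPM against 0, at least 30.7-fold higher. Mfap5, a protein of elastic microfibrils, measured 63.2 and 79.6 CPM against 15.9 and 3.33 CPM, and Pcolce2 141 and 56.6 CPM against 21.1 and 3.33 CPM. These differences were 3.43 ± 0.59 and 3.30 ± 0.53, on 5 and 6 adipose UMIs. Lower in the mesentery were Igfbp3, at 164 and 282 CPM against 935 and 1005 CPM, Col8a1, at 74.6 and 157 CPM against 380 and 564 CPM, the secreted Ccdc3 by -1.79 ± 0.37 and the cytochrome P450 gene Cyp4b1 by -1.72 ± 0.41. Fabp4, the fatty acid binding protein of fat and its capillaries, measured 1381 and 4116 CPM against 5400 and 6932 CPM, a difference of -1.34 ± 0.20. Of 21 matrix genes 2 were called higher and 5 lower. Cd74, H2-Aa and H2-Eb1 were called lower here, Cd74 at 23 and 38.9 CPM against 26.4 and 238 CPM, so adipose B alone was high.

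In the capillary gate 73 of 9641 genes were called (0.757%), 53 higher (0.550%) and 20 lower (0.207%). Run A gave the gate 30 mesenteric and 34 adipose cells, run B 789 and 1260. Without the block 1 gene was called, without mesentery B 34 and without adipose B 13. Glycam1 was at 610 and 44.4 CPM in the mesentery and at 0 in both adipose libraries, which held 56891 and 4698179 UMIs here. Its mesenteric mean was at least 499-fold above the pooled floor, which is no bound within a run. Of its 50 and 99 UMIs in mesentery A and B, 96.0% and 77.8% lay in cells that held at least 2 lymph node genes. These were 2 of 30 and 7 of 789 cells. Glycam1 was seen in 13.33% and 2.79% of the gate's mesenteric cells, against 6.8% and 3.77% in the arterial gate. Nkx2-3 was at 36.6 and 30.9 CPM against 0, at least 51.6-fold higher. Cd74 measured 500 and 71.8 CPM against 0 and 6.20 CPM and was called with H2-Ab1, H2-Aa and H2-Eb1, 4 of 17 antigen presentation genes. The B cell genes Igkc (85.4 and 64.1 CPM) and Cd79a (24.4 and 7.62 CPM) were at 0 in both adipose libraries of the gate, and their part in the Cd74 result was not tested. Hspa1a was higher by 3.72 ± 0.49 on 100 of its UMIs in mesentery A against 16 in mesentery B. The matrix inhibitor of calcification Mgp was lower by -1.80 ± 0.36, mostly from adipose A at 1163 CPM against 122 in mesentery A, and S100a6 and Vim by -1.20 ± 0.31 and -1.12 ± 0.28. The mural genes Rgs5, Acta2 and Myh11 and the cell cycle genes Cenpf, Ccnb2 and Mki67 were also called lower.

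Over all members outside the lymphatic gate 42 of 12703 genes were called (0.331%), 26 higher (0.205%) and 16 lower (0.126%). The count was 0 without the block (265 at an unadjusted p under 0.05), 5 without adipose A, 1 without adipose B, 389 without mesentery A and 144 without mesentery B. Nkx2-3 was at 290 and 162 CPM against 0, at least 1136-fold higher, and Marco at 75.6 and 32.0 CPM against 0, at least 270-fold higher. Of the cells of the Marco set, 63 of 70 in mesentery A and 215 of 241 in mesentery B were in the lymphatic gate. The source of the Marco UMIs outside that gate was not tested. Plac8 differed by 5.56 ± 0.26 and Scgb3a1 by 4.60 ± 0.45. Susd4 differed by -3.81 ± 0.58, the peptide transporter gene Slc15a2 by -2.72 ± 0.39 and Slc39a8 by -2.38 ± 0.33. Il33 was still called, at 145 and 65.9 CPM against 26.8 and 12.8 CPM (2.33 ± 0.30), while Csf1 was not (edgeR adjusted p = 0.144).

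The same differences were set beside those of the high fat libraries, which used other mice. Of the 67 genes called on chow, 61 had the same sign on high fat, 65 were smaller in size, and none was called there. The shares of all tested genes with these traits are not given here, so the counts are not read as particular to the 67. The median size was 1.75 on chow, where the genes were chosen for being large, and 0.60 on high fat. Nkx2-3 measured 71.6 and 41.0 CPM in the mesentery of high fat mice against 1.02 and 0 CPM in their adipose tissue, and Plac8 29.4 and 14.5 CPM against 5.08 and 1.39 CPM. Cyp26b1 differed by 2.41 on high fat and 2.58 on chow, and Pcolce2 by 2.26 and 2.25. Myof measured 70.4 and 64.7 CPM against 45.2 and 33.6 CPM on high fat, a difference of 0.81, and Csf1 51.1 and 36.7 CPM against 28.4 and 24.9 CPM, one of 0.70. Gpihbp1 measured 462 and 1989 CPM against 683 and 2464 CPM, and Ptx3 73.2 and 11.4 CPM against 138 and 11.5 CPM.

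The difference between diets was itself tested for every gene, and edgeR called 0 of 13362 (0%), with 572 at an unadjusted p under 0.05, none by limma-voom and 23 by DESeq2. It called 44 without chow mesentery A, 30 without chow mesentery B and 7 without high fat mesentery A. Tifa, Myof and Pgf were among the genes of smallest p. Their chow difference minus their high fat difference was 1.75 ± 0.26, 1.57 ± 0.25 and -1.83 ± 0.29 (edgeR adjusted p = 0.676 for each). Pgf measured 70.8 and 14.9 CPM in mesentery and 83.2 and 11.3 CPM in adipose tissue on high fat, beside 18.0 and 2.81 CPM and 56.4 and 10.3 CPM on chow. Cells with at least 2 of the 9 lymph node genes numbered 44 of 668 (6.59%) and 11 of 2366 (0.46%) in the high fat mesentery and none in high fat adipose tissue, which allows up to 0.329% of 913 and 0.0938% of 3198 cells with such UMIs. High fat mesentery B thus held few of these cells, and the part of their number in the diet comparison was not tested.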

How the data were processed

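The 8 libraries were 10x 3′ single-cell libraries of YFP+ cells. Their deposited files hold raw UMI counts for every barcode, made by the authors with Cell Ranger 3.0.2 in run A and 5.0.0 in run B per the file headers; the mm10 build and Seurat 4.3.0 are named in the submitters' processing notes, and how cells were called or introns counted is not stated in any source used. Run A lists 31053 gene identifiers and run B 32285; the 30406 in both were used, and they held 99.58% to 99.93% of a library's UMIs. The versions of the counting program differ with the run, which the block absorbs only where both tissues are affected alike.

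Member counts were summed per library, so that libraries and not cells were the replicates. Genes passing filterByExpr (minimum count 10) over 8 libraries were fitted in edgeR 4.0.16 (R 4.3.3) with TMM factors, a mean per group and the run as a block; DESeq2 1.42.0 and limma 3.58.1 were alternatives. Deviations of libraries from their group means correlated between same-run libraries in all 6 pairs of groups (r of 0.581 to 0.753), and the pairing comes from the labels' runs. In each library pool the 6 mice are not separate, and p-values measure the spread between pools. The scripts were tested on simulated counts. No doublet caller was run; leaving out the 5% of members with most UMIs was an added alternative. The 12 genes each way, the 5 of smallest p, 4 each way per gate and 4 for the diet comparison were named by size or p among called genes with at least 100 UMIs over the chow libraries and at least 10 in each library of the higher tissue, with the same direction in both runs, mitochondrial, ribosomal, unnamed, haemoglobin, immunoglobulin and other-cell genes left out; members of gene lists may be named too, and some genes that the rule takes are not reported here. The cells, gene lists and comparisons were chosen with earlier results of these data known. Promoters and positions come from RefSeq tables of GRCm38.p6. Python 3.11.15 with pandas 2.3.3, scipy 1.17.1, numpy 2.4.6 and matplotlib 3.10.9 did the rest.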

Additional observations from a re-analysis of the deposited data

How the results depend on the processing

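Pairing by run decides most counts of called genes: without the replicate block they were 0 over all members, 117 in the lymphatic gate, 0 outside it, 0 in the arterial, 1 in the capillary and 8 in the venous gate, and 0 for the diet comparison. With a replicate block and the 4 chow libraries alone they were 207 over all members, 415 outside the lymphatic gate, 162 in the arterial and 344 in the venous gate. Over all members, against 67, DESeq2 gave 431, no filter on low counts 244, cells thinned to 1000 UMIs 131, the lymphatic gate left out 42 and cells with at least 3 UMIs of other cells left out 20. Alternatives chosen after seeing the data gave 42 with Adipoq cells kept, 84 without the deepest 5% of cells, and, without cells holding at least 2 of the 9 lymph node genes, 38 over all members and 164 in the lymphatic gate. For the diet comparison DESeq2 gave 23. Leaving out 1 library gave 0 to 706 calls over all members, 352 to 1117 in the lymphatic gate, 1 to 389 outside it, 9 to 67 in the arterial, 13 to 83 in the capillary and 51 to 326 in the venous gate, and 0 to 44 for the diet comparison; a lone library of a group is then assumed to vary like the other groups. Over 1203 refits of the 67 called genes none changed direction, 764 kept the call and 439 lost it. The cause of these changes was not tested. Depth limits most the capillary gate of run A and the adipose A library, and a count of 0 there bounds only what its UMIs could show.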
